A study of Mus musculus with 10 samples.

Results

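The colony-stimulating factors are a small family of secreted proteins that keep myeloid cells alive and make them divide and mature, and they act through receptors carried mainly by those cells. Here the 3 factors (Csf1, Csf2 and Csf3) and the 5 genes of their receptors (Csf1r, Csf2ra, Csf2rb, Csf2rb2 and Csf3r) were read in the mouse aorta 7 days after infusion of elastase. The 8 genes were found by their gene names among the 35527 names on the array, and all 8 had at least 1 probe. Of these, 6 gave a signal that could be tested. Csf2 and Csf3 did not, because their probes were well above background on 4 and 2 of the 10 arrays, where at least 5 were needed.

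Infrarenal aortas came from 10-week-old male C57BL/6J mice on a normal diet. In the PPE group (5 mice) porcine pancreatic elastase at 1.5 U per mL in saline was infused into the infrarenal segment for 5 min at a pressure of 100 mmHg, and in the sham group (5 mice) saline alone was infused in the same way. Elastase digests elastin, and the segment then widens into an abdominal aortic aneurysm (AAA). No allele was altered in either group. The model is an enzyme injury of a healthy vessel. Each array carried the RNA of 1 aorta in the red channel and a pooled universal mouse reference RNA in the green channel, without a dye swap, so that a level below is a log2 ratio of aorta over reference. A change is the PPE mean minus the sham mean of that ratio, and it was called at a limma p-value under 0.01 after Benjamini-Hochberg adjustment over all 22520 names tested. The whole aortic wall was used. Fewer cells of a type and less RNA per cell therefore cannot be told apart.

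Between 37.6% and 65.8% of spots were well above background in the red channel of an array, and no spot was saturated. The lowest share was on sham 5 (37.6%), and the lowest among PPE arrays was on PPE 5 (45.8%). Correlations across genes between arrays ranged from 0.872 to 0.969 within sham, from 0.836 to 0.96 within PPE, and from 0.638 to 0.782 between the groups. Sham 1 shared slide 1 with PPE 1 and PPE 2, the only arrays of scan day 2, while arrays 2 and 3 of sham shared slide 2 with arrays 3 and 4 of PPE. The remaining arrays had a slide each. All 8 markers of smooth muscle, the main cell of the aortic media, were well above background often enough to be tested. Of these, 6 were called lower in PPE, against 9.96% of all names tested.

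CSF1 (M-CSF) is the main growth factor of monocytes and macrophages and binds CSF1R, a receptor tyrosine kinase. CSF2 (GM-CSF) binds a specific alpha chain, the product of Csf2ra, which joins a common beta chain, the product of Csf2rb, that carries the signal and is shared with the receptors of interleukin-3 and interleukin-5. The mouse has an additional beta chain from a neighbouring gene, Csf2rb2, which serves interleukin-3 only. CSF3 (G-CSF) drives the production and release of neutrophils through CSF3R, which acts as a homodimer. In inflamed tissue CSF2 and CSF3 can be made by fibroblasts, endothelium and smooth muscle, as well as by leukocytes.

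Some probe sequences matter for reading the values. The brightest probes of Csf2rb and Csf2rb2, both on chromosome 15, hold a 30-base stretch that differs at only 3 positions, shown here because such stretches bear on which RNA a probe reads. Capitals mark the differing bases. Counted from the first base shown, they are A11G, C15T and C25A, with the Csf2rb base first.
Csf2rb: ggcagatcaaAtgtCccttggtctCtgttc
Csf2rb2: ggcagatcaaGtgtTccttggtctAtgttc
The Csf2rb stretch lies at chr15:78181197-78181226 on the plus strand and the Csf2rb2 stretch at chr15:78113145-78113174 on the minus strand (mm9). No other pairing of a Csf2rb probe with a Csf2rb2 probe gave more than 15 identical bases in a window of 30, so the second probe of each gene does not share the stretch.

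The only probe of Csf3r ended in a stretch, at chr4:125721508-125721537 on the plus strand (mm9), whose last 17 bases are in capitals because they also stood in other probes. Those bases resemble the B1 family of short interspersed repeats, which is scattered through mouse transcripts.
Csf3r: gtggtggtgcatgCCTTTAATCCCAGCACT
The 17 bases were found, on either strand, in 4 other probes carrying 4 other gene names, and in 4 of 32851 promoter windows of 300 bases from RefSeq (0.0122%, GRCm38.p6). Of all words of 15 bases in the Csf3r probe, the commonest was in 11 of these windows. For the probes of the other 7 genes the highest such count was 2. These counts cover probes and promoter windows only, and transcripts holding the bases were not counted.

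Among the 6 tested genes 3 were called higher in PPE (Csf1r, Csf2rb and Csf2rb2), against 13.8% of all names tested. Under median centring of the arrays in place of loess only Csf2rb was called, since Csf1r (2.69, limma adjusted p = 0.0436) and Csf2rb2 (3.78, limma adjusted p = 0.0126) missed the threshold. None was called lower, against 9.96% of names, and 0 of the 6 were lower at an unadjusted limma p under 0.05. The groups did not overlap and PPE was higher for Csf1, Csf1r, Csf2rb and Csf2rb2, a pattern seen in 14.9% of names. All 6 representing probes were well above background on every array, so none passed the filter through the PPE group alone. The 3 genes called encode a receptor chain each.

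**Figure D1:**
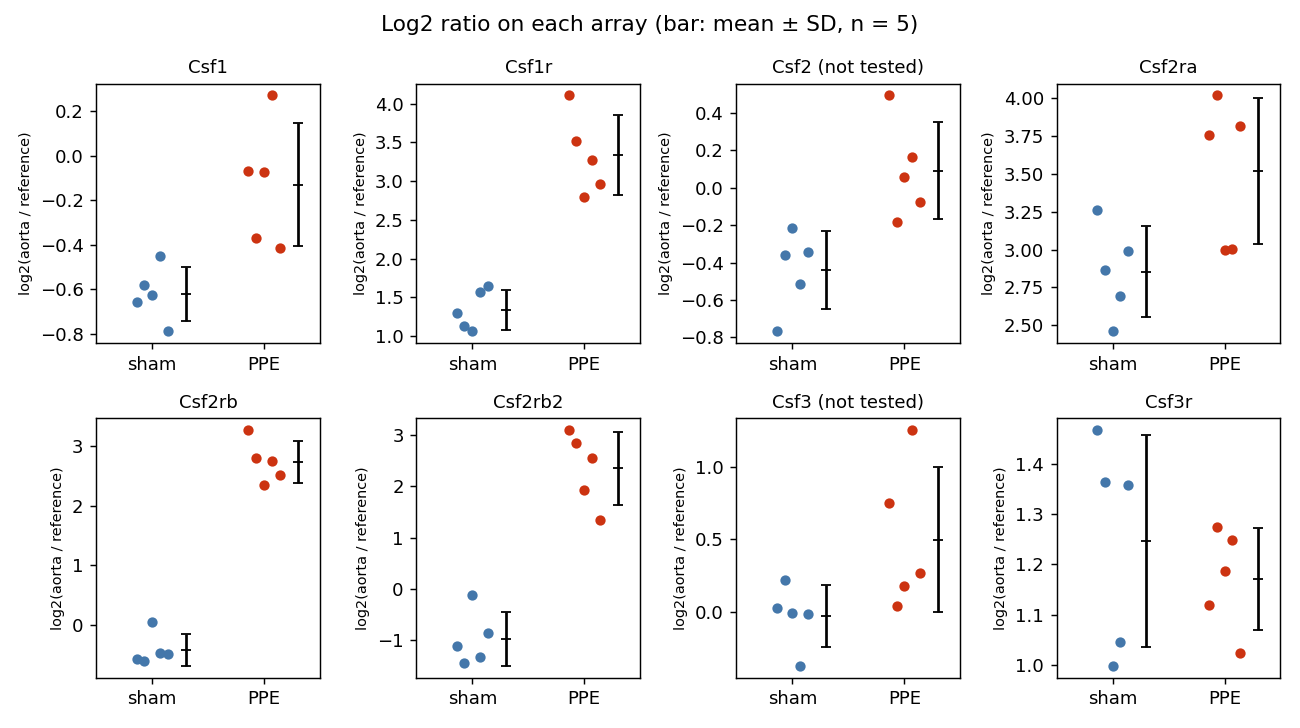
Log2 ratio of aorta over reference (vertical axes, each with its own scale) for the 8 genes on the 5 sham and 5 PPE arrays. Points are arrays and bars the mean ± SD (n = 5), Csf2 and Csf3 were not tested, and the PPE arrays of Csf1r, Csf2rb and Csf2rb2 all lie above the sham arrays while those of Csf3r lie within the sham range.

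Csf1, the macrophage growth factor, was slightly higher in PPE without reaching the threshold. Its brightest probe, at chr3:107544333-107544392 on the minus strand (mm9), was printed 10 times per array. The log2 ratios were -0.65, -0.58, -0.63, -0.45 and -0.79 on sham 1 to 5 and -0.07, -0.37, -0.07, 0.27 and -0.41 on PPE 1 to 5. Every PPE array lay above every sham array, the closest being PPE 5 and sham 4. The mean was -0.62 ± 0.12 (SD, n = 5) in sham and -0.13 ± 0.28 (SD, n = 5) in PPE, a change of 0.49 (SE 0.14, 95% CI 0.19 to 0.79, limma adjusted p = 0.0167) or 1.4-fold. The median SD among the 10 spots of an array was 0.0889, below the spread between mice. Without PPE 5 the change was 0.56 and was called (limma adjusted p = 0.00749).

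The Csf1 probes for another RefSeq transcript gave a different picture. Both were printed once per array and overlap each other, at chr3:107549406-107549465 and chr3:107549435-107549494, so they are not independent readings. Their changes were -0.05 and -0.06 (limma adjusted p = 0.774 and 0.702), with overlapping groups. Within arrays, their change was smaller than that of the brightest probe by 0.54 and 0.55 (exact two-sided permutation test, p = 0.0159 and 0.00794; adjusted p = 0.0191 and 0.0159 over 6 comparisons of probes of the same gene). With the 3 probes averaged, the change of Csf1 was 0.13 (limma adjusted p = 0.332).

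Csf1r, the receptor of CSF1 and a gene expressed by nearly all macrophages, rose about 4-fold. Its log2 ratios were 1.30, 1.13, 1.06, 1.56 and 1.65 on sham 1 to 5, and 4.10, 3.52, 2.80, 3.27 and 2.97 on PPE 1 to 5. The lowest PPE array stood more than 1 log2 unit above the highest sham array. The mean went from 1.34 ± 0.26 (SD, n = 5) to 3.33 ± 0.51 (SD, n = 5), a change of 1.99 (SE 0.23, 95% CI 1.49 to 2.50, limma adjusted p = 5.2e-05). A larger increase was seen in 3% of names tested.

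The other Csf1r probes differed in size but not in direction. One rose by 1.597 on the log2 scale (limma adjusted p = 0.000102) with no overlap between groups. The dimmest had a change of 0.76 that was not called (limma adjusted p = 0.0264), and its groups overlapped. Both changed less in ratio than the brightest probe, by 0.39 and 1.23 (exact two-sided permutation test, p = 0.00794 and 0.0159, adjusted p = 0.0159 and 0.0191 over the 6 comparisons). In the red channel the changes were 1.975 for the brightest probe, 1.92 for the probe without overlap and 0.72 for the dimmest. In the green channel they were -0.02, 0.32 and -0.04, so the gap of 0.39 lay mostly in the reference.

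Ligand and receptor were then set side by side within arrays. The change of Csf1r exceeded that of Csf1 by 1.50 on the log2 scale (exact two-sided permutation test over all relabellings of the arrays, p = 0.00794, the smallest this design allows; adjusted p = 0.0119 over 3 pairs). The within-array difference of the 2 ratios was 1.96 ± 0.30 (SD, n = 5) in sham and 3.46 ± 0.56 (SD, n = 5) in PPE, without overlap.

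Csf2, the ligand GM-CSF, was detected only after elastase. Its probe, at chr11:54060772-54060799 on the minus strand (mm9) and printed 10 times per array, was well above background on 0 sham arrays and on 4 PPE arrays (all but PPE 5). Ratios were -0.77, -0.36, -0.22, -0.51 and -0.34 on sham 1 to 5, where they rest on background, and 0.49, -0.18, 0.06, 0.16 and -0.07 on PPE 1 to 5. The groups did not overlap, by a narrow margin between sham 3 and PPE 2. For a fold from the red channel, the sham arrays were set to the higher of the probe's own signal and the lowest signal well above background. So computed, Csf2 was 1.38-fold higher in PPE (1.28-fold without quantile scaling between arrays). It is not a strict lower bound, since PPE 5 was also not well above background and entered with its own signal. With no filter on dim probes Csf2 was not called (limma adjusted p = 0.0194).

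Csf2ra, the alpha chain that gives the receptor its specificity for GM-CSF, was read by 1 probe, at chr19:61300336-61300395 on the minus strand (mm9), and its red and green channels both moved. By the ratio, it was 2.85 ± 0.30 (SD, n = 5) in sham and 3.52 ± 0.48 (SD, n = 5) in PPE, a change of 0.67 (SE 0.23, 95% CI 0.16 to 1.17, limma adjusted p = 0.0414), or 1.59-fold and not called. The array values were 3.26, 2.87, 2.46, 2.69 and 2.99 on sham 1 to 5 and 3.76, 4.02, 2.99, 3.01 and 3.82 on PPE 1 to 5. PPE 3 and PPE 4 lay below sham 1, so the groups overlapped.

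In the red channel alone, which holds the aortic RNA, the Csf2ra probe rose by 2.53 on the log2 scale (95% CI 2.19 to 2.88), or 5.78-fold (limma adjusted p = 3.95e-07 over the 30836 probes tested, of which 10.3% were called higher). Its red values were 11.95, 11.85, 11.59, 11.94 and 11.95 on sham 1 to 5 and 14.69, 14.24, 14.23, 14.73 and 14.05 on PPE 1 to 5. Every PPE array stood more than 2 log2 units above every sham array.

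The green channel of the same spots, which holds the same reference RNA on every array, rose too. Green values were 8.69, 8.99, 9.13, 9.25 and 8.96 on sham 1 to 5 and 10.93, 10.22, 11.23, 11.73 and 10.23 on PPE 1 to 5. This is a change of 1.87 (SE 0.25, 95% CI 1.31 to 2.42), or 3.65-fold (limma adjusted p = 0.00388). Before any correction beyond the local background, the net green signal was 528 to 908 on sham arrays and 1671 to 5744 on PPE arrays, without overlap. The net red signal was 643 to 4176 on sham and 3531 to 61550 on PPE arrays, and overlapped at PPE 5 and sham 1, so the separation in red holds for the normalized values. Only 21 of the 30836 probes (0.0681%) were called higher in the green channel, 15 of which were also called higher in the red channel, and the Csf2ra probe ranked 15 by size. The central 98% of probes had green changes between -0.52 and 0.39. What raised the reference signal at this probe was not tested. Which of the ratio change (0.67) and the red change (2.53) is nearer to the change in Csf2ra RNA was not tested, and there was no second probe to set beside it.

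**Figure D2:**
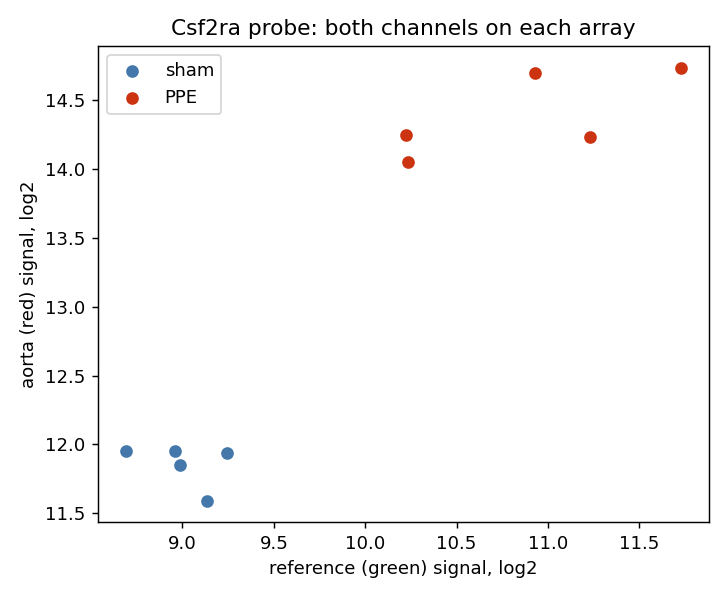
Signal of the Csf2ra probe in the red (aorta) channel against the green (reference) channel, both log2 after normalization, with 1 point per array. The PPE arrays lie above the sham arrays on both axes, from 14.05 to 14.73 in red and from 10.22 to 11.73 in green.

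The reference channel of the other receptor and ligand probes moved less, and none was called in green. For the probes that represent Csf1, Csf1r, Csf2rb, Csf2rb2 and Csf3r, the green changes were 0.01, -0.02, 0.35, 0.13 and 0.00, with limma adjusted p-values from 0.402 to 0.997. Their red changes were 0.50, 1.97, 3.51, 3.46 and -0.07, close to the changes in ratio.

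**Figure D3:**
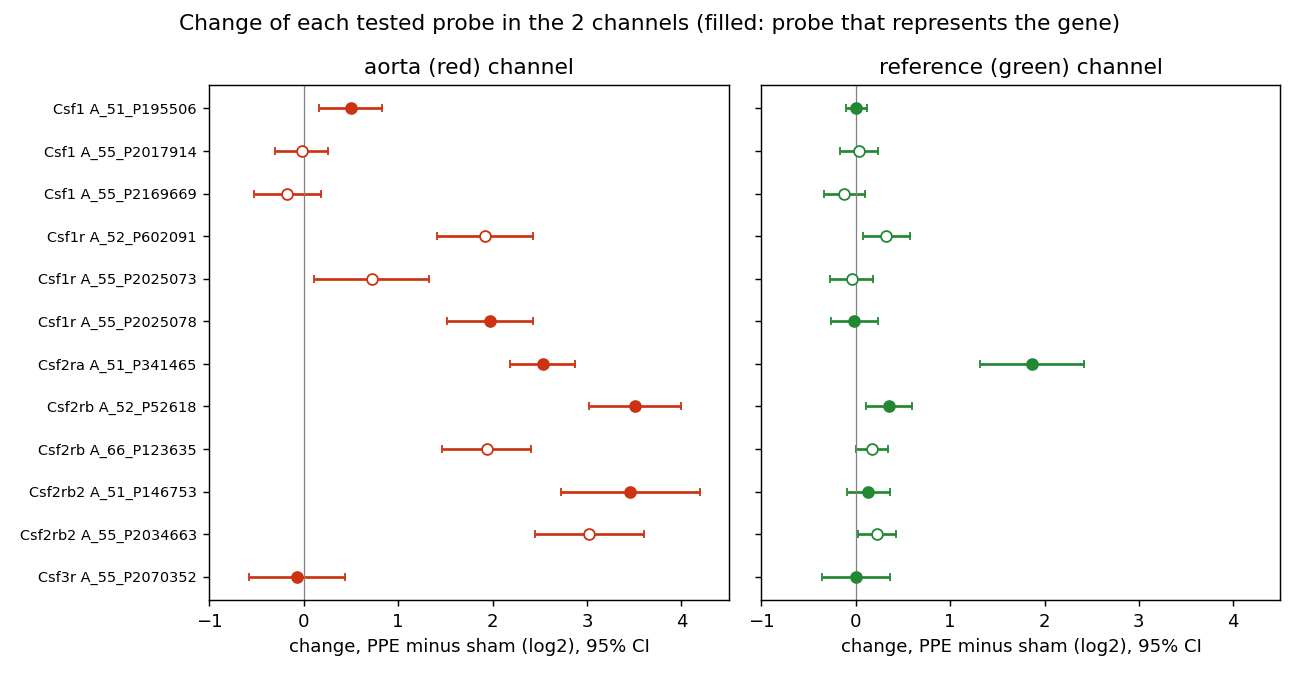
Change from sham to PPE (log2, horizontal axes) of each tested probe in the red and in the green channel, with 95% confidence intervals from limma and filled points for the probe that represents each gene. Receptor probes other than that of Csf3r lie to the right of 0 in red, and the Csf2ra probe is the single one with a green change above 1 (1.87).

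Csf2rb, the common beta chain through which GM-CSF, interleukin-3 and interleukin-5 signal, rose 8.92-fold at its brightest probe (chr15:78181168-78181227, plus strand). Its ratios were -0.58, -0.61, 0.05, -0.46 and -0.49 on sham 1 to 5, and 3.27, 2.81, 2.35, 2.75 and 2.51 on PPE 1 to 5. All PPE arrays were far above all sham arrays, and sham 3 stood above the other sham arrays. The means were -0.42 ± 0.27 (SD, n = 5) and 2.74 ± 0.35 (SD, n = 5), a change of 3.16 (SE 0.18, 95% CI 2.75 to 3.56, limma adjusted p = 5.99e-07). Only 0.684% of names had a larger increase.

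Csf2rb2, the interleukin-3 beta chain, rose 10.03-fold at its brightest probe, chr15:78113126-78113185 on the minus strand (a change of 3.33, SE 0.34, 95% CI 2.57 to 4.08, limma adjusted p = 2.35e-05). Ratios were -1.11, -1.44, -0.12, -1.33 and -0.85 on sham 1 to 5 and 3.096, 2.84, 1.94, 2.56 and 1.34 on PPE 1 to 5. The groups did not overlap, PPE 5 was the lowest of the PPE arrays, and sham 3 was again the highest sham array. The means were -0.97 ± 0.53 (SD, n = 5) and 2.35 ± 0.71 (SD, n = 5).

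Because of the stretch printed above, the second probes of both beta chains were read separately. That of Csf2rb, at chr15:78179504-78179563, rose by 1.76 on the log2 scale (limma adjusted p = 9.86e-05), and was well above background on 4 of 5 sham arrays. That of Csf2rb2, at chr15:78114097-78114156, rose by 2.80 on the log2 scale (limma adjusted p = 3.99e-06). Neither shares the stretch and both rose. The probes were compared only with each other and not with the whole transcript of the other gene, so this does not settle their specificity. The second probes were dim in sham, with mean net red signals of 82 for Csf2rb and 94.5 for Csf2rb2. The offset of 50 used in background correction draws such dim ratios towards 0. Its part in the differences that follow was not tested. The change of the second Csf2rb probe was smaller than that of the brightest by 1.39 (exact two-sided permutation test, p = 0.00794, adjusted p = 0.0159 over the 6 comparisons), and for Csf2rb2 the difference of 0.52 had an exact permutation p of 0.0714. How much of either signal came from the RNA of the other gene was not tested.

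The receptor chains were compared with each other. Csf2rb2 and Csf2rb differed in change by 0.17 (exact two-sided permutation test, p = 0.524), with the PPE difference at -0.38 ± 0.47 (SD, n = 5) and the sham difference at -0.55 ± 0.30 (SD, n = 5). With the probes of each gene averaged, Csf2rb2 changed more than Csf2rb by 0.60 (exact permutation p = 0.0317), and in the red channel alone the difference was -0.04 (exact permutation p = 0.857). Csf2rb changed more than Csf2ra by 2.49 in ratio (exact two-sided permutation test, p = 0.00794, adjusted p = 0.0119 over the 3 pairs). In the red channel alone that gap was 0.97 (exact permutation p = 0.00794). There the reference changes of Csf2ra (1.87) and of Csf2rb (0.35) no longer entered.

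Csf3, the ligand G-CSF, was detected on few arrays. Its probe, at chr11:98564614-98564673 on the plus strand (mm9), was well above background on 0 sham arrays and on 2 PPE arrays (PPE 1 and PPE 4), and the reference was above background on 0 of 10 arrays. The log2 ratios were 0.03, 0.22, -0.01, -0.38 and -0.02 on sham 1 to 5 and 0.75, 0.04, 0.18, 1.25 and 0.27 on PPE 1 to 5, with overlap between the groups. The 2 arrays that detected it were also the 2 highest. No fold is given, since 3 of the 5 PPE arrays were also not well above background. With no filter on dim probes Csf3 was not called (limma adjusted p = 0.124).

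Csf3r, the neutrophil receptor for G-CSF, had the smallest change in ratio of the 5 receptor genes. Its ratios were 1.47, 1.36, 0.999, 1.05 and 1.36 on sham 1 to 5, and 1.12, 1.27, 1.19, 1.25 and 1.02 on PPE 1 to 5. Every PPE array lay within the sham range. The means were 1.25 ± 0.21 (SD, n = 5) and 1.17 ± 0.10 (SD, n = 5), a change of -0.08 (SE 0.12, 95% CI -0.33 to 0.18, limma adjusted p = 0.674), and under median centring of the arrays in place of loess the direction turned (0.80, limma adjusted p = 0.453). In the same arrays 10 of 11 tested neutrophil markers were called higher (13.8% over all names), with a median change of 2.90. Among them was the chemokine receptor Cxcr2 at 3.49 (limma adjusted p = 1.54e-07). The probe ends in the repeat-like stretch printed above. Its red level was above that of 98.2% of tested probes, and its green level above that of 96%. How far the ratio of so bright a probe follows Csf3r RNA was not tested. Whether it reports Csf3r RNA alone was not tested.

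The genes whose ratios ran most like each receptor over the 10 arrays are given as a description. All 10 arrays share the same groups, so r also reflects the difference between groups, and r of the deviations from group means is given second. Csf1r ran closest to the phagosomal metal transporter Slc11a1 (r = 0.99 and 0.92), the transcription factor Lyl1 (0.99 and 0.94) and the oxidase subunit Cybb (0.99 and 0.90). Csf2rb ran closest to Pstpip1 (0.997 and 0.91), the Src-family kinase Fgr (0.996 and 0.87) and Irf5 (0.995 and 0.88), and Csf2rb2 to Dennd1c (0.99 and 0.96), the kinase Ptk2b (0.99 and 0.95) and the leukocyte GTPase Rac2 (0.99 and 0.93).

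For the genes not called, Csf1 ran closest to Zfp608 (r = 0.97 and 0.93), lactoferrin or Ltf (0.97 and 0.92) and Gak (0.96 and 0.92). Csf2ra ran closest to the lectin Clec10a (0.98 and 0.96), Ptpn13 (0.96 and 0.93) and Sfrp4 (0.96 and 0.92). Csf3r ran closest to Spry1 (0.91 and 0.95), Fam125b (0.90 and 0.91) and Gas8 (0.88 and 0.90), whose own changes were 0.01, -0.21 and -0.12.

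Ligands and receptors of the same families were read next. Of 9 genes, 7 were tested and 2 were called higher and 0 lower, with a median change of 0.08. Over all names, against which the counts of this and the following lists are to be read, 13.8% were called higher and 9.96% lower, with a median change of 0.02. Il3ra, the interleukin-3 alpha chain that partners both beta chains, rose by 2.24 on the log2 scale (SE 0.19, limma adjusted p = 5.1e-06). Flt3, a receptor tyrosine kinase of the same class as CSF1R that is used by dendritic cell precursors, rose by 2.42 on the log2 scale (SE 0.26, limma adjusted p = 3.05e-05). The interleukin-5 alpha chain Il5ra (change 0.08), the stem cell factor receptor Kit (-0.04) and the ligands Kitl (-0.62), Flt3l (-0.16) and Il34 (0.32), the second ligand of CSF1R, were not called. Il3 and Il5 were not tested because of low signal.

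Downstream of the receptors, 14 of 21 tested genes of receptor-proximal signalling were called higher (13.8% over all names) and 1 lower (9.96% over all names), with a median change of 1.40. The largest increases were those of the Src-family kinase Fgr (4.34, limma adjusted p = 6.17e-07) and the exchange factor Vav1 (3.49, 2.75e-07), both restricted largely to blood cells. Jak2, the kinase bound to the common beta chain, rose by 1.40 on the log2 scale (limma adjusted p = 9.8e-06). Stat5a and Stat5b, which it activates, had RNA changes of 0.30 and 0.01 and were not called. Activation of these proteins was not measured. Ptpn11, a widely expressed phosphatase, fell by 0.76 on the log2 scale (limma adjusted p = 0.00201).

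Of 11 STAT feedback and target genes, 6 were called higher (13.8% over all names) and 1 lower, a number near the 9.96% over all names, with a median change of 0.94. The feedback inhibitors Socs1 and Socs3 rose most, by 2.13 and 2.08 (limma adjusted p = 5.98e-05 and 1.23e-05). Cish and Socs2, inhibitors induced by STAT5, had changes of 0.44 and -0.05 and were not called. Others of the list were called higher, namely Pim1 (1.69), Osm (1.15), Myc (1.10) and Ccnd1 (0.94). Mcl1 (0.56) and Bcl2l1 (-0.28) were not called. Id1 fell by 1.65 on the log2 scale (limma adjusted p = 1.36e-05). Among 14 myeloid transcription factors 7 were called higher and 1 lower, with a median change of 0.84. Irf8 (2.43, limma adjusted p = 1.37e-05) and Runx1 (2.32, 3.85e-05) led, Spi1, which encodes PU.1, rose by 1.47 (0.000194), and Cebpa fell by 0.84 on the log2 scale (0.00748).

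Upstream of the ligands, 7 of 10 tested inducers of colony-stimulating factor genes were called higher (13.8% over all names) and 1 lower, a number near the 9.96% over all names, with a median change of 1.04. Il1b, a cytokine that induces Csf2 and Csf3 in stromal cells, rose by 5.80 on the log2 scale (limma adjusted p = 1.54e-07), and Tlr2 by 2.83 (6.74e-06). Il17rc fell by 0.48 on the log2 scale (limma adjusted p = 0.00479). Of 7 factors that stabilise or destroy cytokine mRNA, 2 were called higher and 0 lower, with a median change of 0.48. They were the ribonuclease Zc3h12a (1.12, limma adjusted p = 0.00257) and Zfp36l1 (0.66, 0.000479).

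**Figure D4:**
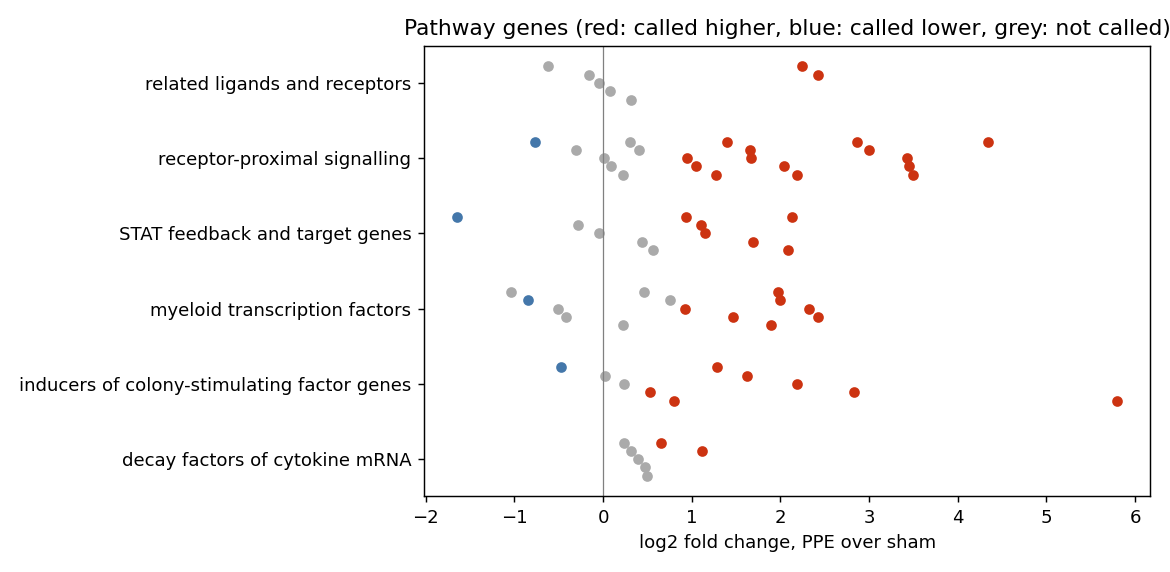
Log2 fold change of PPE over sham (horizontal axis) for each tested gene of the 6 pathway lists, with red for genes called higher, blue for genes called lower and grey for genes not called by limma at an adjusted p under 0.01. The signalling list has 14 genes called higher and 1 called lower, and Il1b at 5.80 is the point farthest right.

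Markers of several cell types differed between the groups as well. Of 12 macrophage markers 10 were called higher (median change 2.73), and their summed red level ranged from 14800 to 20200 in sham and from 126000 to 227000 in PPE. The summed level of neutrophil markers ranged from 2590 to 3300 in sham and from 53600 to 237000 in PPE. Of the dendritic cell markers 3 of 5 were called higher (summed level 1020 to 1770 and 6030 to 11800), of the eosinophil markers 2 of 3 (249 to 284 and 395 to 888), and of the T cell markers 4 of 7 (2580 to 5850 and 10200 to 19300). Of the tested mast cell (5), B cell (5), endothelial (7) and adipocyte (6) markers 0 were called. The summed level of adipocyte markers nevertheless ranged from 340000 to 452000 in sham and from 116000 to 202000 in PPE, without overlap. The mast cell (4210 to 6400 and 2380 to 5600), B cell (2150 to 8900 and 2580 to 11400) and endothelial sums (20900 to 34500 and 19900 to 31600) overlapped between groups. Fibroblast markers were called higher for 4 of 6 (412000 to 527000 and 394000 to 636000), and smooth muscle markers lower for 6 of 8 (845000 to 1290000 and 146000 to 254000). The part of cell number in the receptor changes was not tested.

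Promoters were scanned for the word GAGGAAG, a core recognised by PU.1, on both strands of windows from 250 bases before to 50 bases after the start (RefSeq, GRCm38.p6). Windows were at hand for Csf1, Csf2, Csf2ra, Csf2rb2 and Csf3r. The word stood in 3 of these 5 windows, those of the receptor genes, and in 13.6% of all 32851 windows. The stretches are shown with the word in capitals, for each window that held it. Of the genes shown, Csf2rb2 was called in ratio, and Csf2ra and Csf3r were not. Csf1r and Csf2rb, also called, had no window.
Csf2ra: aacctgcagatGAGGAAGAGGAAGcgggag
Csf2rb2: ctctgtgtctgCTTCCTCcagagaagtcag
Csf3r: ctccttcctgaGAGGAAGgggctgtctatg
They lie at chr19:61228414-61228443 (minus strand), chr15:78305871-78305900 (minus strand) and chr4:126024562-126024591 (plus strand). In Csf2ra the word occurs 14 and 8 bases before the start, its copies sharing a base. In Csf2rb2 it occurs on the opposite strand, 168 bases before and 28 bases after the start, and in Csf3r 86 bases before it. A match describes these letters only.

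Changes were also read within the slides that held both groups. Slide 1 held 1 sham and 2 PPE arrays, and slide 2 held 2 sham and 2 PPE arrays. On slide 1 and slide 2 the changes were 2.51 and 1.94 for Csf1r, 3.62 and 2.83 for Csf2rb, and 4.08 and 3.03 for Csf2rb2. For Csf1 they were 0.43 and 0.70, for Csf2ra 0.63 and 0.34, and for Csf3r -0.27 and 0.04. The 3 receptor genes called over all arrays rose on both slides. Since sham and PPE arrays did not overlap for these genes, no slide could have shown otherwise. The sign of Csf3r differed between the slides. With slide as a fixed block the changes were 2.17 for Csf1r, 3.14 for Csf2rb and 3.45 for Csf2rb2 (limma adjusted p from 0.000154 to 0.000442), and 0.59, 0.45 and -0.09 for Csf1, Csf2ra and Csf3r, which were not called. With slide as a random block Csf1 was called (0.53, limma adjusted p = 0.00423).

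**Figure D5:**
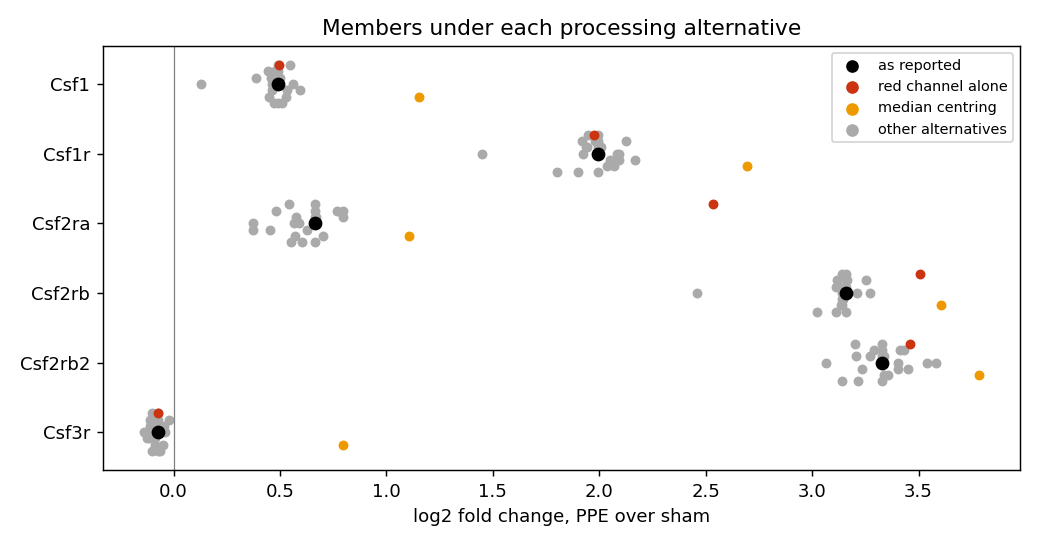
Log2 fold change of PPE over sham (horizontal axis) for the 6 tested genes as reported (black) and under each processing alternative, with the red channel alone in red and median centring in orange. The Csf2ra values separate most, from 0.37 to 2.53, and Csf2rb and Csf2rb2 stay above 2.4 under all alternatives shown.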

How the data were processed

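Aortic RNA of 5 sham and 5 PPE mice was hybridized (500 ng, Cy5) against a universal mouse reference (Cy3). The authors left a few arrays out of their analysis for poor hybridization. They also used hierarchical clustering and principal components to settle the treatment groups and to drop outliers. Which arrays were dropped, and whether before deposit, is not stated. Spots were extracted by the authors with Feature Extraction 10.7.3.1. The deposited spot signals are linear intensity values, the LogRatio the authors deposited is log10 of red over green, and the authors' series matrix holds log2 ratios, equal to log2 of processed red over green. Probe positions are on mm9, per the file headers.

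Spots (mean signal, median local background) were corrected by normexp (offset 50, which draws dim ratios towards 0) and loess within arrays in R 4.3.3 with limma 3.58.1. Control and outlier spots (176 to 331 per array) were left out and spots of a probe averaged. Probes entered the test with red signal well above background on 5 or more of 10 arrays, and the brightest tested probe represented a gene. Groups were compared unpaired by limma (two-sided, Benjamini-Hochberg), and differences between genes by exact permutation tests. Channel values came after loess and quantile scaling of mean brightness. The study's SAM test was not run. The number of arrays limits precision. All samples are separate mice per the methods. The script was tested on simulated data. The fit of the green channel and the comparisons of probes were added after seeing the data.

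The members and gene lists were chosen with earlier results of these data known. Named were all members with every probe, all related ligands and receptors, and the 3 names most correlated with each tested member. The 2 largest called changes in each direction per pathway list were also named. Jak2, Stat5a, Stat5b, Cish, Socs2, Pim1, Osm, Myc, Ccnd1, Mcl1, Bcl2l1, Spi1 and Cxcr2 were added after their values were seen.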

Additional observations from a re-analysis of the deposited data

Results flagged for a closer look

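In Csf2rb, sham 3 (log2 ratio 0.05) stood apart from the other sham arrays, the nearest at -0.46. The gap was 0.778 of the range of the group, above the critical value of 0.71 for 5 samples. It was 1 of 12 groups checked, and chance flags about 1 in 20 groups. Without sham 3 the change of Csf2rb was 3.27.

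The green reference signal of the Csf2ra probe, a channel that enters the comparison only as a denominator, rose from sham to PPE by 1.87 on the log2 scale (limma adjusted p = 0.00388), as described above.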

How the results depend on the processing

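Csf2rb was called higher under all 24 alternatives, with a change of 2.46 to 3.61. Median centring in place of loess moved the median of all names from 0.02 to 0.41 and left 1 member called higher. Under it the change was 2.69 for Csf1r (limma adjusted p = 0.0436), 3.78 for Csf2rb2 (0.0126) and, with its direction turned, 0.80 for Csf3r (0.453), and the names called fell to 408 higher and 8 lower from 3116 and 2243. Csf1 was called with slide as a random block (0.53, limma adjusted p = 0.00423). Csf2ra was called in the red channel alone (2.53). In that channel the difference in change of Csf2rb2 and Csf2rb was -0.045, and with probes averaged 0.60.

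The deviations of same-numbered sham and PPE arrays correlated at -0.30 to 0.52. Differently numbered arrays were not set beside them, so this does not settle whether the numbers pair the arrays. With the replicate block Csf2ra was called (0.67, limma adjusted p = 0.00776) and no other member's call changed. In the paired pair tests the differences stayed at 1.50 and 2.49 with p = 0.0625, the smallest that an exact test of 5 sign flips allows.

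Leaving out each array in turn gave 0.39 to 0.56 for Csf1 (called without PPE 5), 1.80 to 2.13 for Csf1r, 0.54 to 0.80 for Csf2ra, 3.02 to 3.27 for Csf2rb, 3.14 to 3.58 for Csf2rb2 and -0.14 to -0.02 for Csf3r. The cause of these shifts was not tested. Signal over background limits Csf2 to an approximate fold and Csf3 to its detection by array.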
